A study of Oryza sativa with 6 samples.

Results

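The bZIP family of rice transcription factors was followed in whole seeds of the indica variety PB1 at the S3 stage, given as 5 to 10 days after pollination. Seeds of plants with an RNA interference construct against *OsMADS29* (MADS29 RNAi, 3 arrays) were compared with wild-type seeds (WT, 3 arrays) on the Affymetrix rice array. Which transformed lines or plants each MADS29 RNAi array came from is not given in the sources, so a p-value here covers only the spread among these 6 arrays, part of which may be technical. A gene was counted as a bZIP gene where its symbol or a synonym was bZIP or OsbZIP with a number, or RISBZ, REB or TRAB. This found 20 genes, of which 19 had a probe set of their own, out of 17905 genes with a probe set of their own. *OsbZIP19* was not paired with one in the annotation used. *OsbZIP11* was the only member with more than 1 probe set, and the brighter was used. Of the other bZIP genes of the genome, 3 found under different names are given beside the family. The rest, including *RISBZ1* and *REB*, were not analysed here.

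bZIP proteins bind DNA as dimers through a basic region, hold together through a leucine zipper, and mostly recognise elements with an ACGT core. In cereal seeds, relatives of maize Opaque2 act on storage protein promoters, the ABF and AREB group carries the abscisic acid (ABA) response, and another group answers to unfolded protein in the endoplasmic reticulum (ER), where storage proteins are folded. The TGA group is best known from salicylic acid and defence responses, in which its members meet the NPR1 co-activator. The 19 genes were sorted by name under these roles. The groups held 1 gene placed with the regulators of storage protein genes, 3 factors of the unfolded protein response, 2 ABA response factors, 11 TGA and LG2 factors and 2 others.

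The silenced gene was read first. *OsMADS29*, a B-sister MADS-box factor of the developing seed, had log2 signals of 5.17, 5.11 and 4.90 in MADS29 RNAi seeds and 7.16, 6.60 and 7.30 in WT seeds. It was 3.89-fold lower in MADS29 RNAi (log2 difference −1.96 ± 0.21, SE, n = 3 each, limma adjusted p = 0.00725, exact permutation p = 0.10, the smallest that 3 arrays against 3 allow). Across all 57194 probe sets tested, 11.3% differed at an adjusted p under 0.05. The groups also differed in tissue markers, counted at a limma adjusted p under 0.05. Over all 17905 genes, 10.8% were higher and 14.8% were lower in MADS29 RNAi at this threshold. The markers *GLUA-2* and *OsVP1* are counted again in the storage protein and ABA lists below. All 7 embryo and aleurone markers were higher in MADS29 RNAi, with a summed linear signal of 7436 to 7873 against 431 to 495 in WT. In the green pericarp list 1 of 5 markers was higher and 2 were lower, with sums of 6552 to 6702 in MADS29 RNAi and 11737 to 12255 in WT. Of 6 endosperm markers 3 were higher, with sums of 36297 to 37564 in MADS29 RNAi and 29956 to 32729 in WT. Of 4 anther and pollen markers 3 were at background on all arrays, and the other, *DTM1*, was higher (sums of 91 to 112 in MADS29 RNAi and 56 to 66 in WT). The pericarp gene that rose was *OsrcaA1*, for rubisco activase, and its probe set may be shared with a similar sequence. The part of these marker differences in the bZIP results was not tested. In whole seeds a change in the number of cells of a type and a change of RNA per cell cannot be told apart. The stage label covers the same 5 to 10 days for every array. A difference in seed age or progress between the groups within these days could therefore not be told apart from the silencing.

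Of the 19 bZIP genes, *RISBZ5*, *OsbZIP60* and *OsbZIP50* were higher in MADS29 RNAi at a limma adjusted p under 0.05 and none was lower. Over all 17905 genes, 10.8% were higher and 14.8% were lower, so the count of 3 lay near the share of all genes. At an unadjusted p under 0.05, 8 bZIP genes were higher and 1 was lower, against 21.3% higher and 24.4% lower over all genes. The 8 include *OsbZIP11*, which was at background on all arrays. Of the 19 bZIP genes, 6 were at background on all arrays. Background was defined on each array as the 95th percentile of the signals of probe sets foreign to rice (2.78 to 2.92 in log2). 12 were above it on at least 3 arrays. Of these, the same 3 were higher, and 14.7% of the 12915 genes that passed this filter were higher and 20.5% lower. The arrays of MADS29 RNAi and WT did not overlap for 8 of the 12, against 62.0% of the 12915 genes. The median log2 difference was 0.43 over the 12 bZIP genes and −0.08 over the 12915 genes, and 0.02 over all 19 bZIP genes and 0.01 over the 17905 genes. *OsbZIP06* passed the filter through its WT arrays alone, so these are descriptions of the list.

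**Figure D1:**
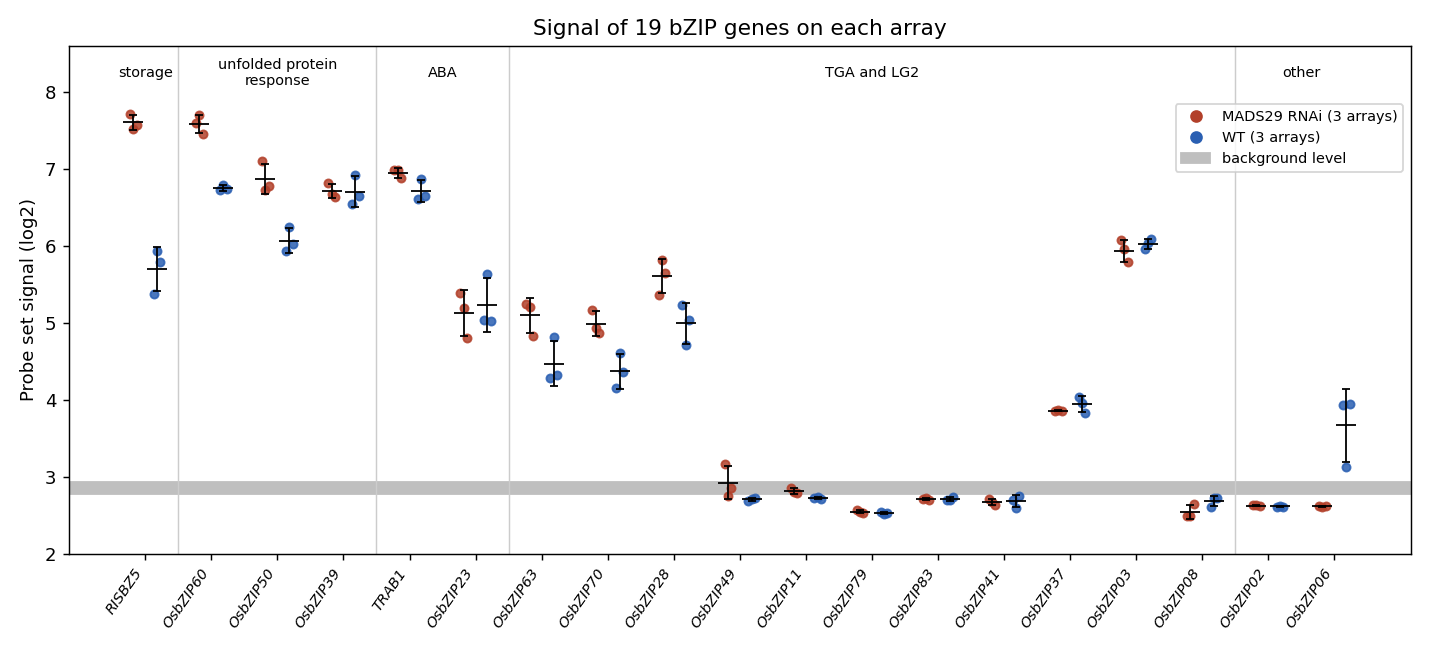
Log2 probe set signal of the 19 bZIP genes, grouped by role, with each MADS29 RNAi array (red, left of each pair) and each WT array (blue, right) as a point, the group mean ± SD in black and the background level as a grey band. *RISBZ5*, *OsbZIP60* and *OsbZIP50* are among the genes with all MADS29 RNAi arrays above all WT arrays, as are *TRAB1*, *OsbZIP28*, *OsbZIP63* and *OsbZIP70*. *OsbZIP06* leaves the background band only in WT, and heights of different genes are not comparable because each probe set has its own response.

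The gene placed with the regulators of storage protein genes showed the steepest fitted rise among the 19. *RISBZ5*, also named *OsbZIP52* (gene ID 4341753), is one of the rice seed bZIP factors cloned together with the relatives of maize Opaque2. It was grouped by this name, and whether it acts on storage protein genes was not tested. Its log2 signal was 7.72, 7.52 and 7.57 in MADS29 RNAi seeds and 5.38, 5.93 and 5.79 in WT seeds. Every MADS29 RNAi array lay well above every WT array, and the spread was wider in WT. The difference was 3.74-fold (log2 1.90 ± 0.16, SE, 95% interval 1.48 to 2.33, n = 3 each, limma adjusted p = 0.00366), and it was the only bZIP change of 2-fold or more that passed the test. It stayed called when any 1 array was left out, with log2 differences of 1.74 to 2.02.

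The storage protein genes themselves were mostly higher. Of 11 such genes with a probe set, 6 rose and none was called lower, against 10.8% and 14.8% of all genes, and the median log2 difference was 0.49. At an unadjusted p under 0.05, 7 were higher and 1 was lower, against 21.3% and 24.4% of all genes. Among those that rose were the genes of the seed allergens *RAG1* and *RAG2*, albumin-type proteins of the alpha-amylase and trypsin inhibitor family. *RAG1* had log2 signals of 11.55, 12.36 and 12.28 in MADS29 RNAi and 7.76, 7.04 and 7.67 in WT, a log2 difference of 4.58 ± 0.32 (SE, limma adjusted p = 0.00201). *RAG2* differed by 1.85 ± 0.12 (adjusted p = 0.00162) and *prolamin*, an alcohol-soluble storage protein gene, by 1.30 ± 0.11 (adjusted p = 0.00328). Some glutelins, the main storage proteins of rice endosperm, were also called higher. Their log2 differences were 0.65 ± 0.07 for *GLUA-1* (adjusted p = 0.00589), 0.49 ± 0.02 for *GLUB-5* (adjusted p = 0.000407) and 0.33 ± 0.02 for *GLUA-2* (adjusted p = 0.0021). *GLUA-3* (0.46, adjusted p = 0.283) and *GLUD-1* (0.11, adjusted p = 0.374) did not pass the test, and *GLUB-4* was at background on all arrays. Quantile normalization brought *GLUA-2* to 0.05, which was not called, and *GLUB-5* to 0.22. The signals of the called glutelins lay near the top of the deposited range, which ended at 13.97 in log2 (*GLUB-5* was at 13.33, 13.32 and 13.33 in MADS29 RNAi and 12.82, 12.81 and 12.87 in WT). Their differences may be compressed there and are not set against those of dimmer genes. The same limit holds for *prolamin* (13.67, 13.69 and 13.77 in MADS29 RNAi) and *RAG2* (13.61, 13.54 and 13.55). It also holds for *GLUA-3* and *GLUD-1*, which did not pass the test. *GLB*, a globulin gene, was at 5.46, 5.37 and 5.52 in MADS29 RNAi and 5.67, 6.10 and 5.80 in WT and did not pass the test (log2 difference −0.41, adjusted p = 0.115). The probe sets of *GLUA-1*, *GLUA-2*, *RAG2* and *prolamin* are of the kinds that the array maker marks as shared between similar sequences, so their signals may mix family members.

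Of the 3 factors of the unfolded protein response, 2 rose and 1 did not pass the test. *OsbZIP60* (gene ID 4344086), which is made as a protein anchored in the ER membrane, had log2 signals of 7.60, 7.70 and 7.46 in MADS29 RNAi seeds and 6.72, 6.79 and 6.75 in WT seeds. The WT arrays lay within a narrow range and all MADS29 RNAi arrays were above it. The difference was 1.78-fold (log2 0.83 ± 0.07, SE, 95% interval 0.66 to 1.00, limma adjusted p = 0.00294) and was called under each of 14 other settings. Its probe set may be shared with a similar sequence.

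*OsbZIP50*, also named *OsbZIP74* (gene ID 4341554), is the factor whose mRNA is spliced by the ER stress sensor OsIRE1. Its log2 signal was 7.10, 6.73 and 6.78 in MADS29 RNAi and 5.93, 6.25 and 6.02 in WT. The groups did not overlap, and MADS29 RNAi replicate 1 was the highest array. The difference was 1.75-fold (log2 0.80 ± 0.14, SE, 95% interval 0.45 to 1.16, adjusted p = 0.0276). This call was the nearest to the threshold on its inner side and was lost without MADS29 RNAi replicate 2 (adjusted p = 0.0655), MADS29 RNAi replicate 3 (0.075), WT replicate 1 (0.0973) or WT replicate 3 (0.114), with log2 differences of 0.74 to 0.87 in these fits. The signal of 1 probe set does not tell spliced from unspliced mRNA, so the active form was not measured.

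*OsbZIP39* (gene ID 4338781), the other factor anchored in the ER membrane, was at 6.82, 6.68 and 6.64 in MADS29 RNAi and 6.54, 6.93 and 6.65 in WT. The groups overlapped throughout (log2 difference 0.01, 95% interval −0.30 to 0.31, limma adjusted p = 0.971, with a sign that changed between settings). Its probe set is also of a kind marked as shared between similar sequences, a limit that carries over to the comparisons with it. The changes of these factors were then compared within arrays, as part of 6 pairs of bZIP genes. The log2 signal of *OsbZIP60* over that of *OsbZIP39* was 0.78 to 1.02 in MADS29 RNAi and −0.13 to 0.18 in WT, so that their changes differed by 0.82. The changes of *OsbZIP50* and *OsbZIP39* differed by 0.80. Both gave an exact two-sided permutation p of 0.10, the smallest possible with 3 arrays against 3, and 0.12 after Benjamini-Hochberg adjustment over the 6 pairs, so none of these pairs could pass a threshold of 0.05. *OsbZIP60* and *OsbZIP50* differed in their change by 0.03 (exact permutation p = 1.00).

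Genes of ER folding and the unfolded protein response were called in both directions. Of 19 with a probe set, 3 rose and 4 fell, with a median log2 difference of −0.17. The shares were 10.8% and 14.8% over all genes, and 14.7% and 20.5% over genes above background on 3 arrays. The counts lay near these shares. The co-chaperones *OsERdj3A* (log2 difference 1.15 ± 0.09, SE, limma adjusted p = 0.00316) and *OsERdj3B* (0.91 ± 0.06, adjusted p = 0.00176), J-domain proteins that work with BiP, rose. *OsBiP1*, the ER chaperone that binds nascent storage proteins, had log2 signals of 11.92, 11.92 and 11.89 in MADS29 RNAi and 11.78, 11.76 and 11.67 in WT. Its rise was small (0.17 ± 0.03, adjusted p = 0.0396) and was called in 1 of the 6 fits that left out an array, with differences of 0.14 to 0.19. The calreticulin gene *CRO1*, a lectin chaperone of the ER, fell by 0.86 on the log2 scale (SE 0.05, adjusted p = 0.00153), with 10.44, 10.55 and 10.36 in MADS29 RNAi and 11.32, 11.27 and 11.34 in WT. The protein disulphide isomerase genes *OsPDIL2-2* (fell by 0.93, adjusted p = 0.00173), *OsPDIL1-1* (fell by 0.29, adjusted p = 0.0116) and *OsPDIL5-1* (fell by 0.68, adjusted p = 0.035) were lower too. *OsPDIL5-1* stayed called in 1 and *OsPDIL1-1* in 5 of the 6 fits that left out an array. The splicing enzyme gene *OsIRE1* was at 4.88, 4.91 and 4.87 in MADS29 RNAi and 4.62, 5.07 and 4.85 in WT (log2 difference 0.04, 95% interval −0.28 to 0.35, adjusted p = 0.815).

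**Figure D2:**
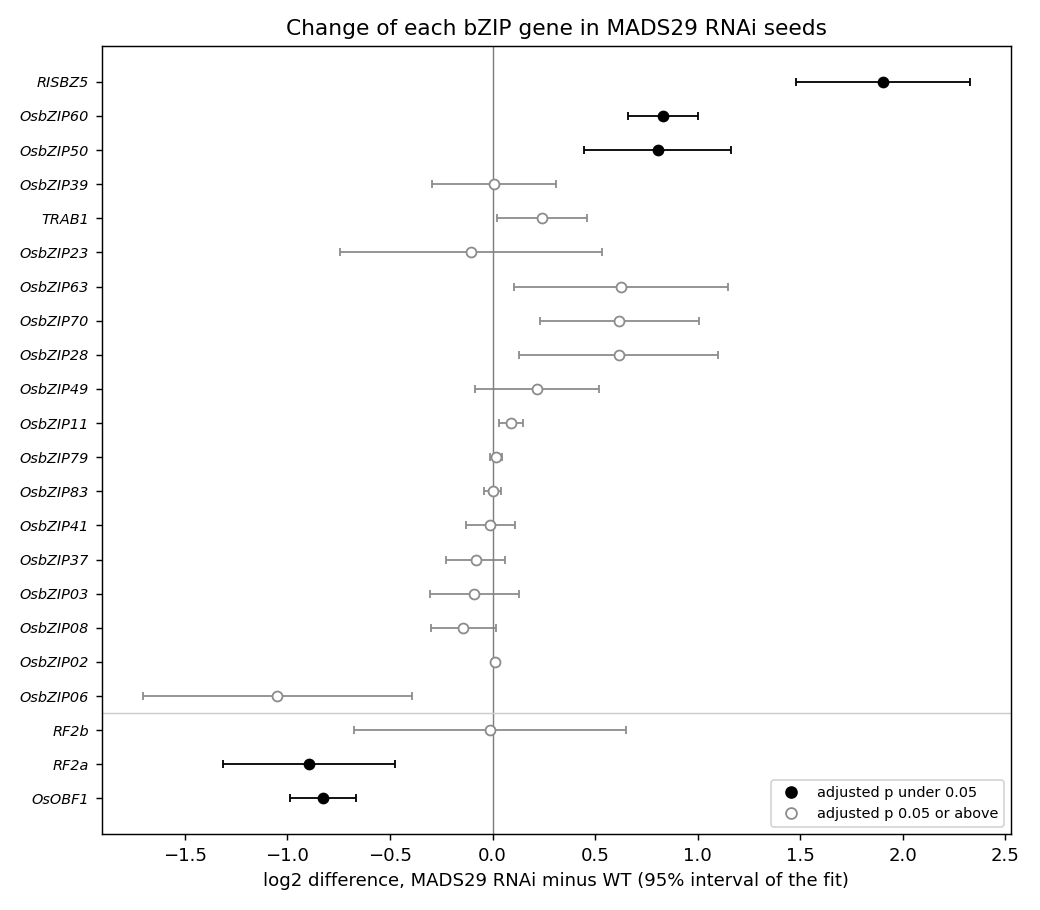
Log2 difference between MADS29 RNAi and WT seeds with the 95% interval of the limma fit (n = 3 arrays each), for the 19 bZIP genes and, under the grey line, 3 bZIP genes found by other names. Filled points passed an adjusted p under 0.05, which gives 3 of the 19 on the right (*RISBZ5* at 1.90, *OsbZIP60* at 0.83, *OsbZIP50* at 0.80) and *RF2a* and *OsOBF1* on the left.

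Neither of the 2 ABA response factors found by the naming rule passed the test, and others of this group were not read. TRAB1, which binds ABA-responsive elements and meets the seed regulator VP1, was read at log2 signals of 6.99, 6.99 and 6.88 in MADS29 RNAi seeds and 6.61, 6.88 and 6.64 in WT seeds. The lowest MADS29 RNAi array was level with the highest WT array, replicate 2. The log2 difference was 0.24 (95% interval 0.02 to 0.46, limma adjusted p = 0.146), and without WT replicate 2 it was 0.33 and passed the test (adjusted p = 0.0324). *OsbZIP23*, a factor of the ABA response to drought and salt, was at 5.39, 5.20 and 4.80 in MADS29 RNAi and 5.03, 5.64 and 5.03 in WT. Its arrays overlapped widely (log2 difference −0.10, 95% interval −0.74 to 0.54, adjusted p = 0.743), and without WT replicate 2 the difference was 0.10. The changes of *RISBZ5* and *TRAB1* differed by 1.66 on the log2 scale (exact permutation p = 0.10, the smallest possible, adjusted 0.12 over the 6 pairs).

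Of 21 genes of ABA synthesis and signalling with a probe set, 4 rose and 2 fell, and the median log2 difference was 0.08. The shares were 10.8% and 14.8% over all genes, and 14.7% and 20.5% over genes above background on 3 arrays. The counts are not read as a result about the list. *OsSAPK1* and *OsSAPK9* encode SnRK2-type kinases, the family that phosphorylates ABF factors, and rose by 1.76 ± 0.14 (SE, limma adjusted p = 0.0031) and 1.37 ± 0.10 (adjusted p = 0.00209). *OsPP2C08*, a phosphatase of the clade that holds these kinases in check, rose by 1.60 ± 0.12 (adjusted p = 0.00273). *OsVP1*, the B3 factor that acts with TRAB1, had log2 signals of 6.25, 6.07 and 6.06 in MADS29 RNAi and 5.10, 5.34 and 5.04 in WT and rose by 0.97 ± 0.10 (adjusted p = 0.00658). *OsPYL11*, of the ABA receptor family, fell by 1.08 (SE 0.11, adjusted p = 0.00596), and the kinase gene *OsSAPK2* fell by 0.73 (SE 0.08, adjusted p = 0.00717). These 6 genes stayed called when any 1 array was left out. The probe set of *OsSAPK9* may be shared with a similar sequence.

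The LEA and dehydrin genes, which accumulate in maturing embryos and aleurone and are classical ABA response genes, stood far apart between the groups. Of 8 with a probe set, 6 rose and none was called lower, against 10.8% and 14.8% of all genes (at an unadjusted p under 0.05, 8 were higher and 0 lower), and the list's median was 3.01 in log2 (2.92 with genes at background in WT set at their bounds). *RAB21*, a dehydrin, had log2 signals of 11.02, 11.20 and 11.12 in MADS29 RNAi and 3.56, 3.69 and 3.55 in WT, a difference of 7.51 ± 0.06 (adjusted p = 1.98e-05). *rab25* was at 10.20, 10.05 and 10.21 in MADS29 RNAi, against a WT mean at background, and was at least 158-fold higher (adjusted p = 9.59e-05). Its signal was slightly above background on 2 WT arrays. *RAB16B* was at least 5.19-fold higher (adjusted p = 0.00124). *EM* rose by 3.46 ± 0.12 (adjusted p = 0.00039), *OsLEA19* by 3.48 ± 0.16 (adjusted p = 0.000731) and *OsDhn1* by 0.67 ± 0.04 (adjusted p = 0.0018). 5 of the 8 genes are also among the 7 embryo and aleurone markers, so the lists do not count separately. Of 4 other seed regulators, *OsGAMyb*, a MYB factor of the gibberellin response, fell by 0.40 (SE 0.04, adjusted p = 0.00788), and *RSR1*, an AP2 factor that represses starch synthesis genes, had a MADS29 RNAi mean at background, was at least 1.70-fold lower and did not pass the test (fitted log2 difference −0.84, adjusted p = 0.0661). Without WT replicate 2 both were called lower. The probe sets of *OsLEA19*, *OsGAMyb* and *RSR1* are of the kinds marked as shared between similar sequences.

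**Figure D3:**
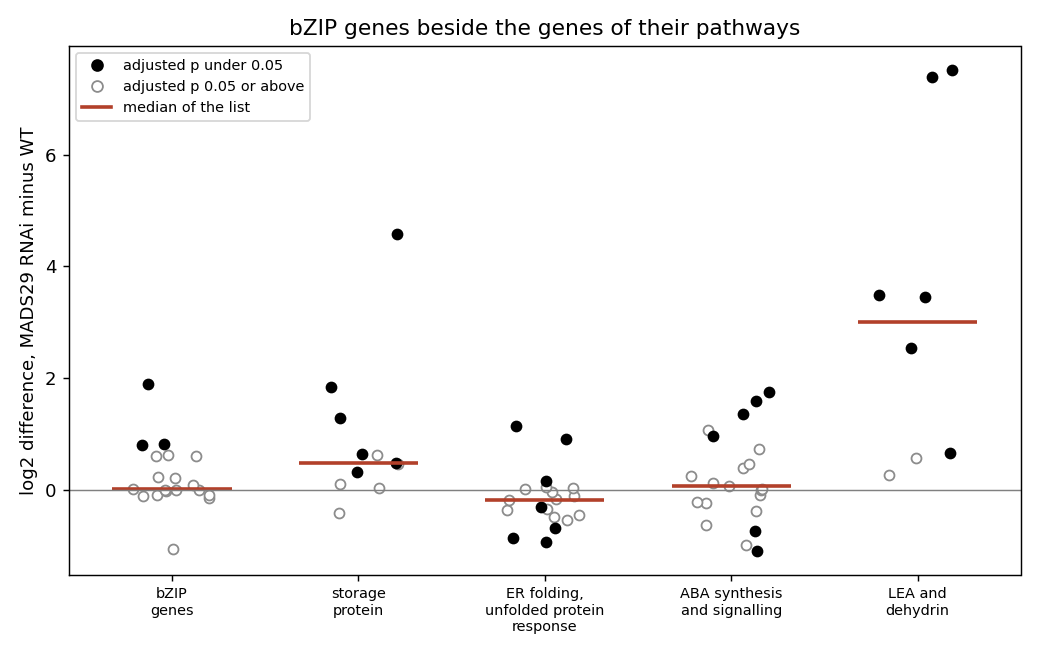
Log2 difference between MADS29 RNAi and WT seeds for each gene (points, filled where the adjusted p was under 0.05) of the bZIP family and of 4 lists of pathway genes, with the median of each list as a red line. The storage protein list (median 0.49) and the LEA and dehydrin list (3.01) lie mostly above 0, whereas the ER folding list (−0.17) and the ABA list (0.08) have called genes on both sides.

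None of the 11 TGA and LG2 genes passed the test. At an unadjusted p under 0.05, 4 were higher and 0 lower, against 21.3% and 24.4% of all genes. The 4 include *OsbZIP11*, which was at background on all arrays. *OsbZIP70* (*TGAL7*), *OsbZIP28* (*TGA2.2*) and *OsbZIP63* (*TGA2.1*) had log2 differences within a narrow range. *OsbZIP70* was at 5.17, 4.93 and 4.86 in MADS29 RNAi and 4.15, 4.60 and 4.36 in WT (difference 0.62, 95% interval 0.23 to 1.01, limma adjusted p = 0.0725). *OsbZIP28* was at 5.36, 5.81 and 5.65 in MADS29 RNAi and 5.24, 4.71 and 5.03 in WT (0.62, 0.13 to 1.10, adjusted p = 0.116). *OsbZIP63* was at 5.25, 5.21 and 4.83 in MADS29 RNAi and 4.28, 4.81 and 4.32 in WT (0.63, 0.10 to 1.15, adjusted p = 0.129). In all 3 the groups came close without overlapping. TGA2.1 and TGA2.2 are known as partners of the rice NPR1 homologue, as is TGA2.3, the product of *OsbZIP03*. *OsbZIP03* was at 6.07, 5.96 and 5.79 in MADS29 RNAi and 5.96, 6.03 and 6.09 in WT (−0.09, −0.31 to 0.13, adjusted p = 0.437). The changes of *OsbZIP63* and *OsbZIP28* differed from that of *OsbZIP03* by 0.71 and 0.70, which this design could not establish (exact permutation p = 0.10, the smallest possible, adjusted 0.12). *OsbZIP37* (*TGAL6*), 3.85 to 3.87 in MADS29 RNAi and 3.83 to 4.03 in WT, had a log2 difference of −0.08 (adjusted p = 0.31). Its probe set may be shared with a similar sequence. *OsbZIP49* (*TGAL8*) exceeded background on MADS29 RNAi replicate 1 alone, at 3.17. The other 5, namely *OsbZIP08*, *OsbZIP41*, *OsbZIP79*, *OsbZIP83* and *OsbZIP11* (*LG2*, a relative of the maize gene *liguleless2*), were not above background on any array, and differences among such values have no order.

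*OsbZIP06* (gene ID 4325139) ran the other way. In MADS29 RNAi seeds it was at background on all arrays, at 2.62, 2.61 and 2.62, and in WT seeds it was above background at 3.93, 3.12 and 3.95. Replicate 2 was the low WT array. It was at least 1.70-fold lower in MADS29 RNAi, measured against the background level, and its fitted difference of −1.05 (95% interval −1.70 to −0.39) did not pass the test (limma adjusted p = 0.0719). It was the bZIP gene just outside the threshold. Without WT replicate 2 the difference was −1.32 and was called (adjusted p = 0.000249). *OsbZIP02* stayed at background, at 2.62 to 2.63 in MADS29 RNAi and 2.61 to 2.62 in WT.

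The annotation held 3 further bZIP genes under other names, and they are given beside the family. *OsOBF1*, an ocs element binding factor that pairs with the cold-induced factor LIP19, had log2 signals of 7.68, 7.49 and 7.50 in MADS29 RNAi and 8.44, 8.36 and 8.36 in WT. All MADS29 RNAi arrays lay below all WT arrays, and the fall of 0.83 on the log2 scale (SE 0.06, limma adjusted p = 0.00252) was called under each of the 14 other settings. *RF2a*, a factor of vascular development first studied on the promoter of rice tungro bacilliform virus, was at 4.83, 5.10 and 4.51 in MADS29 RNAi and 5.71, 5.76 and 5.65 in WT. It fell by 0.89 (SE 0.16, adjusted p = 0.0327), and the call was lost without MADS29 RNAi replicate 1 (adjusted p = 0.0909), WT replicate 1 (0.117), WT replicate 2 (0.0963) or WT replicate 3 (0.113). It was also lost with the 5′ signal block (0.0549) and in the 4 arrays with alike 5′ signal (0.188). Its partner gene *RF2b* was at 5.27, 4.57 and 4.70 in MADS29 RNAi and 4.55, 5.15 and 4.88 in WT (log2 difference −0.01, 95% interval −0.68 to 0.65, adjusted p = 0.973).

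Control probe sets divided the arrays across the groups. The 5′ actin control was at background on MADS29 RNAi replicate 1 (log2 2.75) and WT replicate 2 (2.33) and between 5.86 and 6.42 on the other 4. The 5′ probe set of the *Bacillus subtilis dap* control was likewise low on these arrays (3.64 on MADS29 RNAi replicate 1 and 2.82 on WT replicate 2, against 5.53 to 7.11 on the others). The 18S rRNA control was low on them too, at 2.76 on MADS29 RNAi replicate 1 and 3.62 on WT replicate 2. On the other arrays it was 6.62 and 6.41 in MADS29 RNAi and 9.08 and 7.45 in WT, so it was lower in MADS29 RNAi within each kind of array. Its part in the bZIP results was not tested. In both groups the array with the low 5′ signal was the highest of its group for 6 of the 12 bZIP genes above background, against 40.3% of the 12915 genes. *RISBZ5*, *OsbZIP50*, *OsbZIP39*, *OsbZIP23*, *OsbZIP63* and *OsbZIP70* had this order. Within the pair of arrays with low 5′ signal the log2 difference was 1.79 for *RISBZ5*, 0.85 for *OsbZIP50* and 0.80 for *OsbZIP60*. Over the other 4 arrays it was 1.96, 0.78 and 0.84 for the same genes. These differences were thus about as large within each kind of array. With the 5′ signal as a block, 5 of the 12 bZIP genes were higher, the 3 named above with *OsbZIP28* and *OsbZIP70*, and 18.4% of the 12915 genes were higher in that fit. *OsbZIP11*, at background, was called there as well. *OsbZIP06* differed by −0.50 within the pair and by −1.32 over the other 4.

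**Figure D4:**
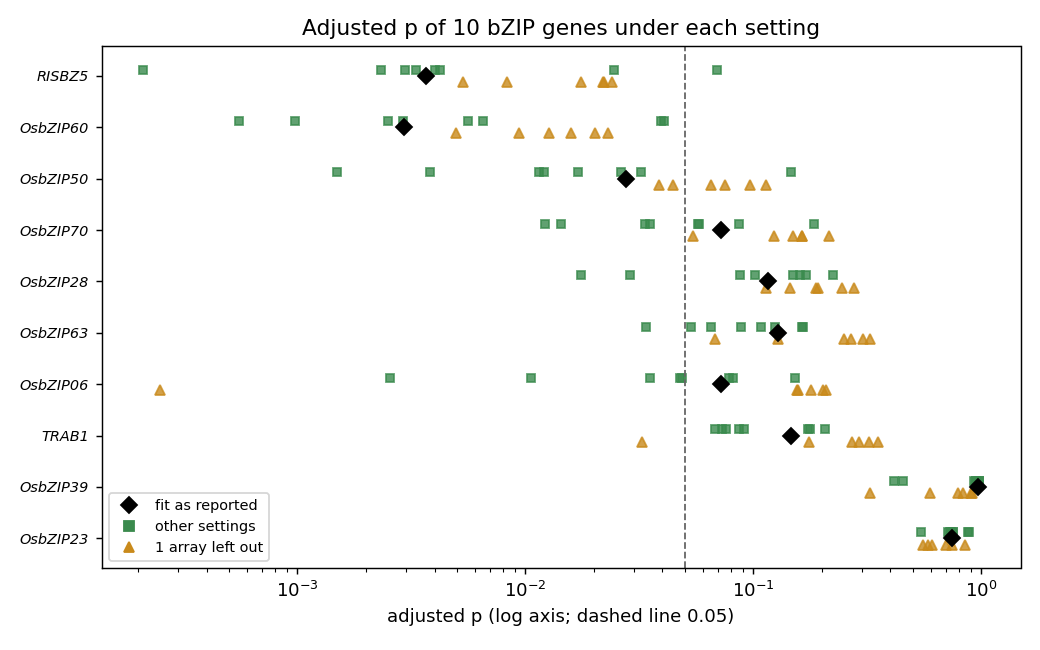
Adjusted p of 10 bZIP genes (log axis) in the fit as reported (black diamonds), under other settings of normalization, filter, spread model and block (green squares) and with 1 array left out (orange triangles), with 0.05 as a dashed line. *OsbZIP60* stays left of the line throughout and *RISBZ5* crosses it once. *OsbZIP50*, *OsbZIP70*, *OsbZIP28*, *OsbZIP63*, *OsbZIP06* and *TRAB1* have points on both sides, and *OsbZIP39* and *OsbZIP23* stay right of it.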

How the data were processed

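Per the labels, RNA of whole S3 seeds came from a Trizol extraction, and 500 ng of it gave biotin-labelled cRNA. The authors deposited probe set intensity values on a linear scale (3.98 to 16101, array medians of 6.05 to 6.18) for 57381 probe sets on 6 arrays. The sources used here do not name their background correction, normalization or software, and steps that compress or scale the values could have moved the differences. Groups came from the labels. Log2 was taken, and 123 AFFX and 64 reporter probe sets were left out, which left 57194 in the fit. The difference of MADS29 RNAi from WT was fitted in R 4.3.3 by limma 3.58.1 (lmFit and eBayes without a block), with Benjamini-Hochberg adjustment over all probe sets, and called at an adjusted p under 0.05. The procedure was run on simulated data with independent noise on each array. Those data lack the division by 5′ signal, so they do not show how the fit behaves on these arrays. The array annotation paired 22436 probe sets with 1 gene, and each gene was read from its brightest probe set over the 6 arrays. Some list genes had further probe sets, among them *RAG1*, *RAG2*, *prolamin*, *GLUA-2*, *RAB21*, *OsDhn1* and *OsrcaA1*. Whether these further probe sets changed alike was not examined. Gene names were checked in the RefSeq table of assembly ASM3414082v1, and no coordinates or sequences are printed. Background was the 95th percentile of 74 probe sets foreign to rice, per array. Where a group mean lay at or under it, a fold is a lower bound against the higher of signal and background on each array of that group. The number of arrays, 3 a group, limits the precision.

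The bZIP genes, the role groups, the pathway and marker lists, the named genes, the 6 compared pairs and the division by 5′ signal were chosen with earlier results of these data known. List members were matched by symbol or synonym, and entries that matched by name alone to unrelated genes were removed. Named genes were *OsMADS29*, all members of the storage, ABA and unfolded protein groups, other bZIP genes called with 2-fold or more, up to 3 risers and 3 fallers in each other group or list by smallest adjusted p, and the bZIP genes nearest the threshold. The intended naming of the brightest gene of each group was dropped, since signals of different probe sets are not comparable. *GLB*, *OsIRE1*, *RSR1* and the remaining list genes were named after their values were seen. Alternatives were quantile normalization, centring of arrays, a filter on dim probe sets, an intensity trend, array weights, blocks for replicate number and for 5′ signal, only the 4 arrays with alike 5′ signal, other choices of probe set and of fold, and each array left out in turn.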

Additional observations from a re-analysis of the deposited data

How the results depend on the processing

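The 3 bZIP genes called higher became 6 with the 5′ signal block, 5 with array weights, 6 with only probe sets above background on 3 arrays, and 1 when a change of at least 2-fold was also asked for. The counts with the 5′ signal block and with array weights include *OsbZIP11*, at background on all arrays. With 1 array left out they numbered 2 to 4. None of the 19 bZIP genes was called lower as reported. 1 of them, *OsbZIP06*, was called lower in the 4 arrays with alike 5′ signal, with the 5′ signal block and with array weights. It was also called lower with the intensity trend and with the filter on dim probe sets. With 1 array left out 0 to 1 were called lower, and 1 without WT replicate 2. Among the lists, that filter called 1 storage protein gene lower in place of 0 and 5 ABA genes lower in place of 2. The ABA genes called lower were 5 with the 5′ signal block and 4 with the intensity trend. ER folding genes called lower numbered 2 to 5 with 1 array left out, against 4, and were 2 without WT replicate 3. Of the other seed regulators, 1 was called higher with the 5′ signal block, against 0, and 2 were called lower, against 1, in the 4 arrays with alike 5′ signal, with array weights, with the intensity trend and with the dim filter (1 to 2 with 1 array left out, 2 without WT replicate 2).

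Same-numbered arrays of the 2 groups deviated from their group means with r = −0.51, −0.51 and 0.40 over probe sets. The arrays with low 5′ signal, MADS29 RNAi replicate 1 and WT replicate 2, carry different numbers and had r = 0.65. These values therefore cannot decide whether the replicate numbers pair the arrays. With the replicate block 1 bZIP gene was called higher (*OsbZIP60*; *RISBZ5* had an adjusted p of 0.0693 and *OsbZIP50* of 0.147), no ER folding gene and 1 ABA gene were called higher, 0 other seed regulators were called lower, and the call of *OsMADS29* (−1.96) was lost, with an adjusted p of 0.0796, as was that of *RF2a* (0.095). In this balanced design the block cannot move a fitted difference.

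Sign changed for 5 of the genes recomputed, none of which passed the test. Genes at background on all arrays were not recomputed. *OsbZIP23* was at 0.092 with array weights and between −0.23 and 0.10 with 1 array left out. *OsbZIP39* was at −0.011 with arrays centred and between −0.076 and 0.12 with 1 array left out. *RF2b* was at 0.32 with array weights, at 0.038 after quantile normalization and between −0.22 and 0.14 with 1 array left out. *OsIRE1* was between −0.077 and 0.15 with 1 array left out, and *OsbZIP37* was at 0.012 after quantile normalization. The causes were not tested. With 6 bZIP genes at background on all arrays, changes of these could not be measured.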
